A study of Mus musculus with 6 samples.

Results

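Activator protein 1 (AP-1) is a dimeric transcription factor built from proteins of the Fos, Jun, ATF and Maf groups, which pair through a leucine zipper and bind DNA through an adjacent basic region. The 9 genes described here are Fos, Fosb, Fosl1, Fosl2, Jun, Junb, Jund, Atf3 and Maff, chosen by name from the 21033 gene symbols of the count table, and all 9 were found in it. Jun proteins pair with themselves or with Fos proteins, whereas Fos proteins need a Jun partner. Several of these genes, Fos above all, are immediate early genes that are switched on within minutes by growth factors, cytokines or stress through MAP kinases and then fall silent. In synovial fibroblasts, the mesenchymal cells of the joint lining, AP-1 is known for driving genes of inflammation and of matrix breakdown.

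The libraries came from primary synovial fibroblasts of the ankle joint of hTNFtg mice, a line with a human TNF transgene and chronic arthritis, kept in culture for 3 passages. The cells were given 10 µM compound 33 (3 libraries) or the vehicle DMSO (3 libraries) for 48 h, so both groups carried the transgene and no wild-type cells were compared. Reads were taken from the 3′ ends of polyadenylated transcripts, with 1594052 to 2897207 reads in genes per library. Whether the replicates came from different mice or dishes is not stated in the labels, so every p-value here reflects variation among the 6 libraries, part of which may be technical. All 9 markers of synovial fibroblasts were detected, among them Thy1, Pdgfra and Col1a1, and their summed level was 10869 to 12875 CPM (reads per 1000000) with compound 33 and 12073 to 13585 CPM with DMSO. Of 5 endothelial markers none met the low-count filter, with Pecam1 and Tie1 at 0 reads in every library, and their summed level was 4.63 to 9.54 CPM with compound 33 and 2.09 to 3.16 CPM with DMSO. Most of this was Tek, with 7, 17 and 4 reads with compound 33 and 4, 1 and 3 reads with DMSO. The muscle gene Des, also below the filter, had 7, 6 and 4 reads with compound 33 and 1, 1 and 1 with DMSO, and the 5 muscle markers summed to 20.1 to 36.1 CPM with compound 33 and 24.7 to 40.3 CPM with DMSO. The leukocyte gene Ptprc stayed at or below 1.39 CPM. Markers of other cell types with a mean above 10 CPM were Lyz2, Cd14, Sox9, Comp, Acta1, Mcam and Cspg4, and none passed the edgeR test described next. Of these, the pericyte gene Cspg4 did not overlap between the groups, at 33.0, 24.9 and 27.8 CPM with compound 33 and 21.7, 16.2 and 15.0 CPM with DMSO (adjusted p = 0.674 in edgeR). The other listed pericyte markers, Mcam, Rgs5 and Notch3, overlapped between the groups. Mcam had a log2 fold change of -0.00097. Rgs5, below the filter, had 0, 3 and 1 reads with compound 33 and 6, 2 and 11 with DMSO. Notch3, also below it, had 6, 18 and 7 reads with compound 33 and 6, 8 and 17 with DMSO. Among the fibroblast markers, Pdgfrb, which pericytes also express, stood at 254, 303 and 264 CPM with compound 33 and 123, 206 and 205 CPM with DMSO, and Thy1 at 427, 525 and 507 CPM with compound 33 and 851, 871 and 574 CPM with DMSO. The groups did not overlap for either gene, as for 13.4% of all genes tested (6.64% higher and 6.73% lower with compound 33). The marker genes given here with values were chosen after these were seen, and their part in the results below was not tested. In such bulk samples fewer cells of a type and less RNA per cell cannot be told apart.

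The comparison asks which transcripts differ between fibroblasts given compound 33 and those given DMSO. Of the AP-1 genes, 6 could be tested and none of these passed, while 3 were too rare for the test. The 5 most abundant members, Junb, Fosl2, Jun, Jund and Fosl1, all lay above 60 CPM in every library of both groups, and the transcripts of Fos, Fosb and Atf3 were rare in both. Levels are CPM of the library size scaled by the TMM method, which corrects for differences in RNA composition. A gene was tested where enough libraries reached about 10 reads, and 6 of the 9 members met this. Of these 6, 0 passed edgeR's quasi-likelihood test at a Benjamini-Hochberg adjusted p under 0.05, against 0.0296% of the 10124 genes tested (0.00988% higher and 0.0198% lower with compound 33). Also 0 of the 6 had an unadjusted p under 0.05, against 6.87% of all genes tested. DESeq2 and limma-voom passed 0 members as well, with 0 under an unadjusted 0.05 in either.

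**Figure D1:**
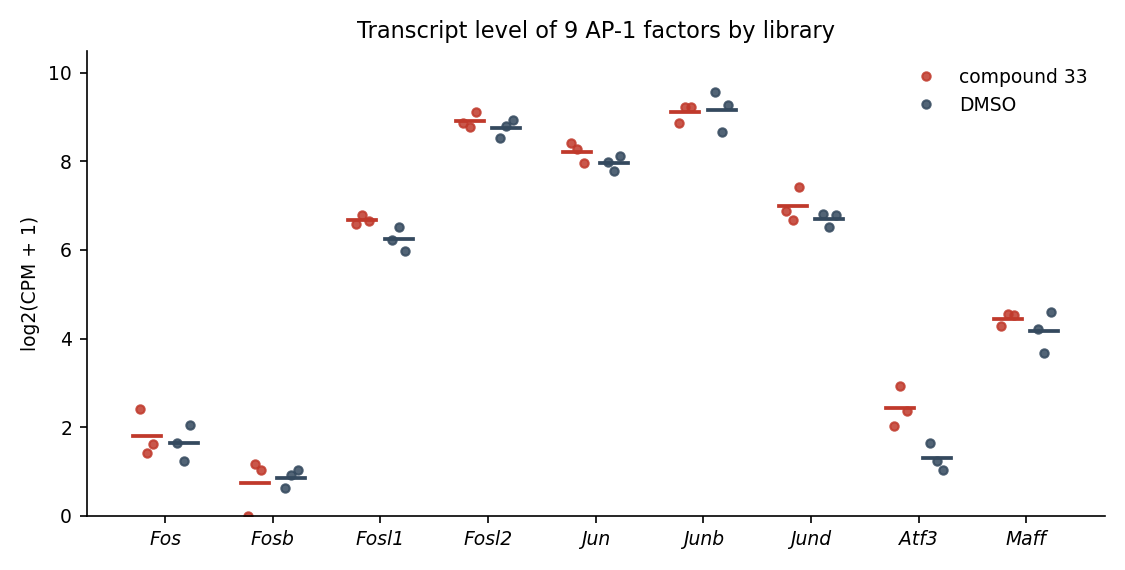
Level of each AP-1 gene as log2(CPM + 1) on the vertical axis, with 1 point per library and a bar at the mean of the 3 libraries of a group, compound 33 in red and DMSO in dark blue. Junb and Fosl2 are the most abundant members, and Fos, Fosb and Atf3 lie near the floor. The groups separate only for Fosl1 and Atf3, higher with compound 33, as for 6.64% of all genes tested.

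AP-1 genes are known to be controlled in part by AP-1 and by the related CREB and ATF factors at their own promoters, so the sites of that kind are shown. Promoters of 300 bases around RefSeq starts (GRCm38.p6) were available for 8 members, with 3 for Maff, and Fosl1 was not matched. The AP-1 site TGANTCA was in 0 of these 10 promoters and in 7.81% of all promoters, on either strand. The cAMP response element TGACGTCA was in 1 of them, for Maff, and in 1.79% of all promoters. Its variant TGACATCA, known from the Jun promoter, was in 2 of them, for Jun and Maff, and in 3.62% of all promoters. The shorter core TGACG, which lies inside the full element, was in 6 of the 10 promoters, for 5 of the 8 members, and in 20.8% of all promoters. The last 2 motifs were added after the promoters had been seen, and of several cores in a promoter the one nearest the start is shown. Capitals mark the match, each sequence reads 5′ to 3′ along the gene, and the distance is that of its first capital base upstream of the start.
Jun, 45 bases upstream, chr4:95052250-95052277, minus strand: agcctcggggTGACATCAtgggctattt
Maff, 29 bases upstream, chr15:79347481-79347508, plus strand: gctggggcggTGACGTCActgcatgact
Maff, 45 bases upstream of another start, chr15:79348347-79348374, plus strand: tggagccatgTGACATCAgtgtttgttc
Fos, 66 bases upstream, chr12:85473814-85473838, plus strand: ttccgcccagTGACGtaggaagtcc
Fosb, 60 bases upstream, chr7:19310091-19310115, minus strand: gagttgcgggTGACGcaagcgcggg
Junb, 106 bases upstream, chr8:84978840-84978864, minus strand: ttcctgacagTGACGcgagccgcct
Atf3, 7 bases upstream, matched on the other strand, chr1:191183326-191183350, minus strand: aatagcattaCGTCAgcctgggatt
These matches are a description of the letters and do not show binding. The same core stands close to the start of Fos, Fosb and Atf3, which were rare. It also stands close to a start of Maff, at a mean of 19.2 CPM over the 6 libraries, and of Junb, the member with the highest mean level. A link of the core to level was not tested.

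On mm10 (GRCm38), the plus strand carries Fos (chromosome 12, 85473890 to 85477273), Fosl1 (chromosome 19, 5447547 to 5455946), Fosl2 (chromosome 5, 32135801 to 32157842), Maff (chromosome 15, 79346621 to 79359076) and Jund (chromosome 8, 70698949 to 70700616). The minus strand carries Jun (chromosome 4, 95049034 to 95052222), Junb (chromosome 8, 84974484 to 84978718), Fosb (chromosome 7, 19302696 to 19310051) and Atf3 (chromosome 1, 191170296 to 191218039). All are protein coding in the GENCODE M21 annotation, and Jun and Jund each have a single exon. The last 173 bases of Junb overlap exons of Prdx2 on the other strand, and reads there cannot be told apart without a stated strand setting. Prdx2, a peroxiredoxin, stood at 338 ± 15.9 CPM with compound 33 and 377 ± 29.7 CPM with DMSO (mean ± SD, n = 3 each). The 3′ end of Fosl1 lies within 1163 exon bases shared with Ccdc85b on the other strand. Ccdc85b is not among the gene symbols of the count table, so its level is not known here. Reads from this stretch cannot be told apart either, so the Fosl1 counts may include some from Ccdc85b. Exons of Jun and Jund also overlap genes on the other strand, at 2500 and 536 bases or more from their 3′ ends.

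Among the Jun genes, Junb was the most abundant. JunB is a Jun family member that in many settings activates less strongly than c-Jun. Junb stood at 464, 600.3 and 601 CPM with compound 33 and at 757, 404 and 623 CPM with DMSO. All 3 compound 33 libraries lay within the range of the DMSO libraries, so the groups overlapped fully. Its log2 fold change was -0.10 (SE 0.25, 95% interval -0.64 to 0.44, adjusted p = 0.962 in edgeR's quasi-likelihood test), and this sign depended on single libraries, being 0.01 without compound 33 replicate 1 and 0.11 without DMSO replicate 1.

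Jun encodes c-Jun, the main target of the JNK kinases and the classical partner of Fos proteins. It stood at 342, 309 and 249.6 CPM with compound 33 and at 251, 218 and 279 CPM with DMSO. Compound 33 replicates 1 and 2 lay above every DMSO library, and replicate 3 lay within the DMSO range. The log2 fold change of Jun was 0.27 (SE 0.21, 95% interval -0.18 to 0.72, adjusted p = 0.888 in edgeR), and it was 0.16 without compound 33 replicate 1 and 0.39 without compound 33 replicate 3. Jund, whose protein JunD is present in resting cells and often opposes growth, stood at 117, 101 and 171 CPM with compound 33 and at 111, 91.1 and 109 CPM with DMSO. The value of 171 CPM in compound 33 replicate 3 set it apart, and without that library the log2 fold change was 0.08 in place of 0.32 (SE 0.24, 95% interval -0.19 to 0.83, adjusted p = 0.876 in edgeR).

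The Fos genes fell into an abundant and a nearly silent pair. Fosl2 encodes Fra-2, a Fos protein without the strong activation domain of c-Fos that in mice promotes fibrosis when overexpressed. It stood at 464, 439 and 556 CPM with compound 33 and at 367, 443 and 491 CPM with DMSO, with overlapping groups and a log2 fold change of 0.17 (SE 0.21, 95% interval -0.29 to 0.62, adjusted p = 0.934 in edgeR). This value was 0.061 without DMSO replicate 1, 0.066 without compound 33 replicate 3 and 0.26 without DMSO replicate 3. Fosl1 encodes Fra-1, a related protein linked to migration and to protease expression. It stood at 95.4, 110.3 and 100.4 CPM with compound 33 and at 74.2, 90.2 and 62.0 CPM with DMSO. All compound 33 libraries lay above all DMSO libraries, which held for 6.64% of the genes tested. The log2 fold change of Fosl1 was 0.44 (SE 0.22, 95% interval -0.03 to 0.91), with an unadjusted p of 0.0666 and an adjusted p of 0.744 in edgeR. Leaving out single libraries moved this value between 0.31 and 0.59, and the lowest adjusted p in edgeR was then 0.601, without DMSO replicate 1.

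Fos, the archetype of the immediate early genes, had 7, 4 and 4 reads with compound 33 and 4, 3 and 9 reads with DMSO. These reads correspond to 4.28, 1.66 and 2.06 CPM with compound 33 and 2.12, 1.35 and 3.13 CPM with DMSO, and the groups overlapped. Fosb, a close relative of Fos, had 0, 3 and 2 reads with compound 33 and 1, 2 and 3 reads with DMSO. Both were below the low-count filter, and in an edgeR fit without the filter their 95% intervals of the log2 fold change ran from -1.29 to 1.68 for Fos and from -2.45 to 2.34 for Fosb. A doubling or a halving of either transcript was therefore not detectable at this depth.

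Atf3 encodes a stress-induced factor that often represses its targets, including cytokine genes in macrophages. It had 5, 16 and 8 reads with compound 33 and 4, 3 and 3 reads with DMSO, or 3.06, 6.63 and 4.12 CPM with compound 33 and 2.12, 1.35 and 1.04 CPM with DMSO. All compound 33 libraries lay above all DMSO libraries, which held for 6.64% of the genes tested, Atf3 not being among those. The whole comparison rests on 29 and 10 reads. The ratio of the summed reads per scaled library size, compound 33 over DMSO, was 3.38, with an exact Poisson 95% interval of 1.60 to 7.77 that covers counting error only. Atf3 did not meet the low-count filter. Without the filter its log2 fold change was 1.69 (SE 0.70, 95% interval 0.29 to 3.10), with an unadjusted p of 0.0189 and an adjusted p of 0.603 in edgeR, so it did not pass. In the filtered fit, 6.87% of all genes tested had an unadjusted p under 0.05 in edgeR. In the unfiltered fit the Atf3 estimate ran from 1.31 without compound 33 replicate 2 to 1.99 without DMSO replicate 1.

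Maff encodes a small Maf protein, which lacks an activation domain and pairs with other leucine zipper factors such as NRF2. It stood at 18.3, 22.4 and 22.1 CPM with compound 33 and at 17.5, 11.7 and 23.3 CPM with DMSO. The DMSO group held both the lowest and the highest library, and the groups overlapped. The log2 fold change of Maff was 0.25 (SE 0.30, 95% interval -0.40 to 0.91, adjusted p = 0.928 in edgeR), and leaving out DMSO replicate 2 gave 0.038 while leaving out DMSO replicate 3 gave 0.53.

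For each of the 6 tested members the 95% interval lay within a 2-fold change in either direction, as it did for 65.6% of all genes tested. The largest upper bounds were 1.88-fold for both Fosl1 and Maff, and the lowest lower bound was 0.643-fold for Junb. Of the 6 log2 fold changes 5 were positive, with a median of 0.26, where 48.9% of all genes tested were positive with a median of -0.01. In the authors' deposited table, the log2 fold changes of the same members are 0.44 for Fosl1, 0.17 for Fosl2, 0.27 for Jun, -0.10 for Junb, 0.32 for Jund and 0.25 for Maff. The adjusted p in the authors' deposited table is 0.998 for Fosl1 and 0.999 for the others, and it is not given for Fos, Fosb and Atf3. Thus 0 members have an adjusted p under 0.05 in the authors' deposited table, whose DESeq2 test gave one to 0.179% of its 10063 genes with a value, and 0 of the 9 have an unadjusted p under 0.05 there.

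**Figure D2:**
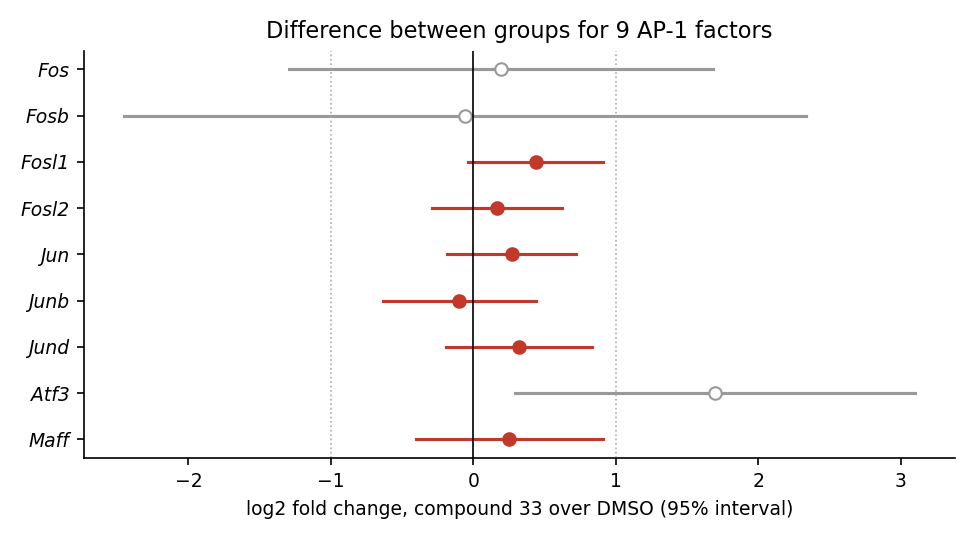
Log2 fold change of each AP-1 gene, compound 33 over DMSO, with its 95% interval on the horizontal axis; filled red points are the 6 genes tested in edgeR, and open grey points are the 3 genes below the low-count filter, from the fit without that filter. Dotted lines mark a 2-fold change, and the 6 filled intervals all cross 0 and stay inside those lines.

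Because the assay counts about 1 read per transcript, levels in CPM could be set beside each other without a correction for length. For Junb and Fosl1, the exons shared with genes on the other strand at their 3′ ends limit this comparison and the subfamily shares given below. By mean level over the 6 libraries the order was Junb, Fosl2, Jun, Jund, Fosl1, Maff, Atf3, Fos and Fosb. Junb exceeded Fosl2 in 4 of 6 libraries only, so this pair was not separated beyond its spread. Jund exceeded Fosl1 in 5 of 6 libraries, and Atf3 exceeded Fos in 2 of 6. In all 6 libraries Fosl2 lay above Jun, Jun above Jund, Fosl1 above Maff and Maff above Atf3. Junb had a higher mean level than 97.4% of the genes tested, Fosl2 than 96.4%, Jun than 93.3%, Jund than 82.2%, Fosl1 than 76.7% and Maff than 33.2%.

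Within each subfamily, no gene's share separated the groups without overlap. Fosl2 gave 79.5% to 84.3% of the summed CPM of the 4 Fos genes with compound 33 and 82.7% to 88.1% with DMSO. Fosl1 gave 17.4% ± 2.40 with compound 33 and 14.9% ± 3.27 with DMSO (mean ± SD, n = 3 each), and the share of Fos itself was at most 0.759% in any library. Among the 3 Jun genes, Junb gave 50.3% to 59.4% with compound 33 and 56.7% to 67.6% with DMSO. Jun gave 24.4% to 37.1% with compound 33 and 22.5% to 30.6% with DMSO. The ratio of Jun to Junb was 0.738, 0.515 and 0.415 with compound 33 and 0.332, 0.539 and 0.447 with DMSO. The lowest ratio belonged to DMSO replicate 1 and the highest to compound 33 replicate 1, and the other 4 libraries were interleaved. The 4 Fos genes together reached 564, 553 and 659 CPM with compound 33 and 444, 535 and 557 CPM with DMSO, which overlap.

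**Figure D3:**
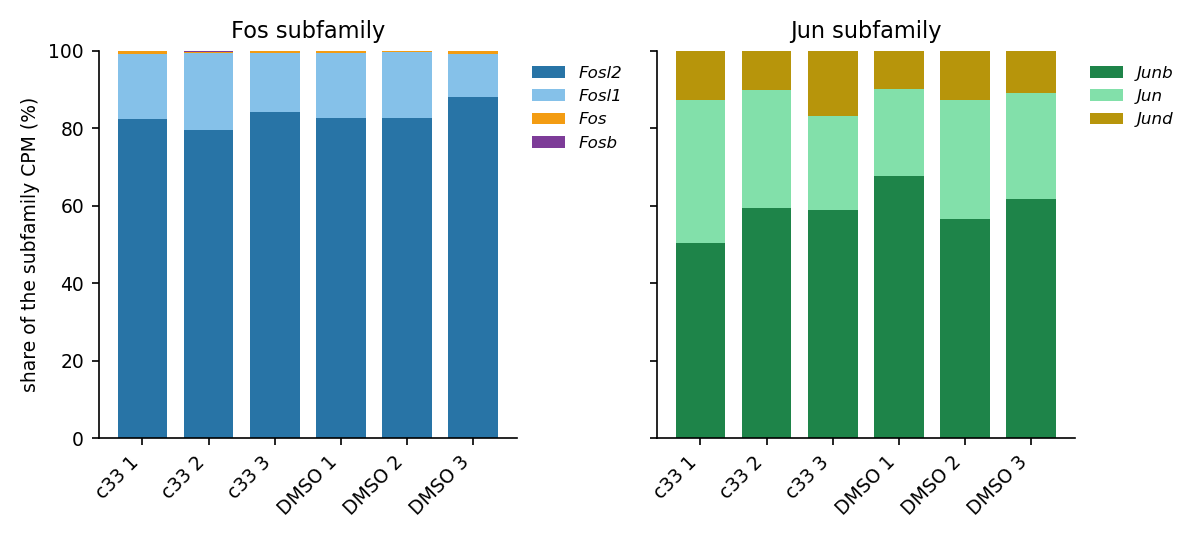
Share of each gene in the summed CPM of the Fos subfamily (left) and the Jun subfamily (right), in percent, with 1 stacked bar per library, the 3 compound 33 libraries (c33) left of the 3 DMSO libraries. Fosl2 fills 79.5% to 88.1% of the Fos subfamily and Junb 50.3% to 67.6% of the Jun subfamily, and no gene's shares separate the groups without overlap.

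Transcripts of immediate early genes are known to decay fast, in part through AUUUA elements in the 3′ untranslated region (UTR). In the longest annotated 3′ UTR, Fos holds 4 such elements in 815 bases, or 4.91 per kb, a density that 4.9% of the tested genes with a UTR reach. Junb holds 2 in 485 bases, or 4.12 per kb, Maff 4 in 1221 bases, or 3.28 per kb, and Jun 4 in 1233 bases, or 3.24 per kb. By number of elements, 32.3% of the tested genes with a UTR hold as many as Fos or more, and 53.9% as many as Junb or more. Fosl2 holds the most of the members, 8 in 4653 bases, or 1.72 per kb. The median of the tested genes was 1.28 per kb, and Fosb, at 0.434, lay below it. The 2 densest members, Fos and Junb, were a rare and the most abundant transcript, and a link of these elements to level was not tested.

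Other proteins of the leucine zipper class set which dimers can form. Of 16 listed, 11 were tested, and edgeR passed 0, with 0 under an unadjusted 0.05. The other tools, DESeq2 and limma-voom, passed 0 too, again with 0 under an unadjusted 0.05. Their median log2 fold change was 0.13, against -0.01 over all genes tested. Mafk, a small Maf like Maff, stood at 17.4 ± 6.68 CPM with compound 33 and 11.3 ± 2.64 CPM with DMSO (mean ± SD, n = 3 each). Nfe2l1, a stress factor that pairs with small Mafs, stood at 203 ± 6.26 CPM with compound 33 and 167 ± 17.0 CPM with DMSO (adjusted p = 0.849 in edgeR). It was the 1 gene of the 11 tested whose groups did not overlap, higher with compound 33, as for 6.64% of all genes tested. Jdp2, a repressor that pairs with c-Jun, had a log2 fold change of 0.30, Atf2 0.34, Atf7 -0.32 and Mafg 0.13. Batf, Batf2 and Batf3, typical of immune cells and named here after their values were seen, did not meet the low-count filter.

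Kinases and SRF-linked factors that switch on Fos and Jun had estimates in both directions. Of 28 listed symbols, 22 were tested. Their log2 fold changes, 9 above 0 and 13 below, had a median of -0.02, and edgeR, DESeq2 and limma-voom passed 0. Under an unadjusted 0.05, edgeR had 1 of the 22 genes (0 in DESeq2 and 1 in limma-voom), against 6.87% of all genes tested in edgeR. In edgeR this gene was Mapk8, which encodes JNK1, a kinase that phosphorylates c-Jun. Mapk8 stood at 26.9, 34.8 and 23.7 CPM with compound 33 and at 40.8, 37.9 and 47.3 CPM with DMSO. All compound 33 libraries lay below all DMSO libraries, as for 6.73% of the genes tested, and the log2 fold change of Mapk8 was -0.56 (SE 0.24, adjusted p = 0.720 in edgeR). Among the tested genes of this list the groups also did not overlap for 2 higher ones, as for 6.64% of all genes tested. These were Elk4 (log2 fold change 0.32) and Mef2c (0.70, at a mean of 5.01 CPM), named after their values were seen. Estimates were 0.40 for Map2k3, an activator of p38, -0.37 for Map2k1 and 0.42 for Map2k2, the activators of ERK, 0.47 for Elk1 and -0.41 for Mef2d.

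Of 25 listed symbols of immediate early genes outside the AP-1 family, 21 were tested, and edgeR passed 0, with 0 under an unadjusted 0.05. Of the 21, 16 were positive, with a median log2 fold change of 0.05, where 48.9% of all genes tested were positive with a median of -0.01. DESeq2 and limma-voom passed 0, with 1 and 0 genes under an unadjusted 0.05. Ier3, a survival gene induced by stress, stood at 903 ± 168 CPM with compound 33 and 643 ± 161 CPM with DMSO (mean ± SD, n = 3 each), with an estimate of 0.49 on the log2 scale (SE 0.24, adjusted p = 0.741 in edgeR). Egr1, which shares control by SRF with Fos and is named here after its values were seen, stood at 113 ± 20.1 CPM with compound 33 and 109.8 ± 36.0 CPM with DMSO. The matricellular gene Cyr61 had a log2 fold change of 0.04, Klf4 0.47, Nr4a1 -0.27 and Zfp36, whose protein binds AU-rich elements, -0.26.

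Phosphatases and other inhibitors that end MAP kinase signals were tested for 11 of 15 listed genes, with 4 estimates above 0, 7 below and a median of -0.12 on the log2 scale, and edgeR, DESeq2 and limma-voom passed 0. Dusp1, which inactivates p38 and JNK and is itself induced early, stood at 177 ± 15.0 CPM with compound 33 and 129 ± 45.3 CPM with DMSO (mean ± SD, n = 3 each). Dusp14, with a log2 fold change of -0.68, was the 1 gene of the 11 under an unadjusted 0.05 in edgeR, against 6.87% of all genes tested. Its adjusted p was 0.720 in edgeR and its groups overlapped, and DESeq2 and limma-voom had 0 genes under an unadjusted 0.05. The 1 tested gene of this list whose groups did not overlap was Dusp8 (log2 fold change -0.58), named after its values were seen. It was lower with compound 33, as 6.73% of all genes tested were without overlap. Log2 fold changes were 0.59 for Dusp10, -0.39 for Spred2 and -0.12 for Spred1. Factors linked to the turnover of AP-1 proteins or their RNA had a median of 0.04, with 6 of 8 listed symbols tested. For these, edgeR, DESeq2 and limma-voom passed 0, with 0 under an unadjusted 0.05 in each. Among these the ubiquitin ligase genes Fbxw7, Det1 and Itch had log2 fold changes of 0.21, 0.42 and -0.37, the signalosome gene Cops5 -0.22 and the RNA decay gene Zfp36l1 0.12.

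Most of the 24 genes listed here as regulated by AP-1 in fibroblasts had a lower estimated level with compound 33, and none passed edgeR. All 24 listed genes were tested, and 19 had a log2 fold change below 0, as did 5176 of all 10124 genes tested. The median of the list was -0.33, against -0.01 over all genes tested. Many of them are also under the control of NF-κB and other factors, so the list does not report on AP-1 alone. In edgeR 0 passed, while 6 were lower and 1 was higher under an unadjusted 0.05, against 3.23% of all genes tested lower and 3.64% higher. The list was drawn up with earlier results of these data known, so its median and these shares describe it and do not test it. DESeq2 passed Il6 alone, as did edgeR without a low-count filter, and limma-voom passed 0. At an unadjusted 0.05 DESeq2 had 5 genes lower and 1 higher, and limma-voom 6 lower and 1 higher. Il6, a cytokine gene, had 8, 3 and 9 reads with compound 33 and 52, 36 and 45 reads with DMSO, with an estimate of -2.52 on the log2 scale (SE 0.47, adjusted p = 0.212 in edgeR). Hbegf, a growth factor of the EGF family, stood at 14.7, 12.9 and 6.69 CPM with compound 33 and at 24.4, 19.8 and 24.7 CPM with DMSO. Ptgs2, the inducible prostaglandin synthase, stood at 88.6, 123 and 141 CPM with compound 33 and at 256, 184 and 201 CPM with DMSO. For all of Il6, Hbegf and Ptgs2 the compound 33 libraries lay below every DMSO library. Over the list the groups did not overlap for 6 lower genes and 1 higher gene of 24, against 6.73% and 6.64% of all genes tested. The stromelysin gene Mmp3, with a log2 fold change of -0.65, the chemokine gene Ccl2 (-0.56) and the urokinase receptor gene Plaur (-0.60), named after their values were seen, were the other 3 lower ones by both measures. Ccnd1, or cyclin D1, a cell cycle gene that c-Jun activates, was the 1 higher gene, at 441, 403 and 387 CPM with compound 33 and 168, 295 and 242 CPM with DMSO (log2 fold change 0.80, SE 0.23, adjusted p = 0.486 in edgeR). The 2 most abundant genes, the metallothioneins Mt2 and Mt1, had log2 fold changes of -0.16 and -0.37.

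**Figure D4:**
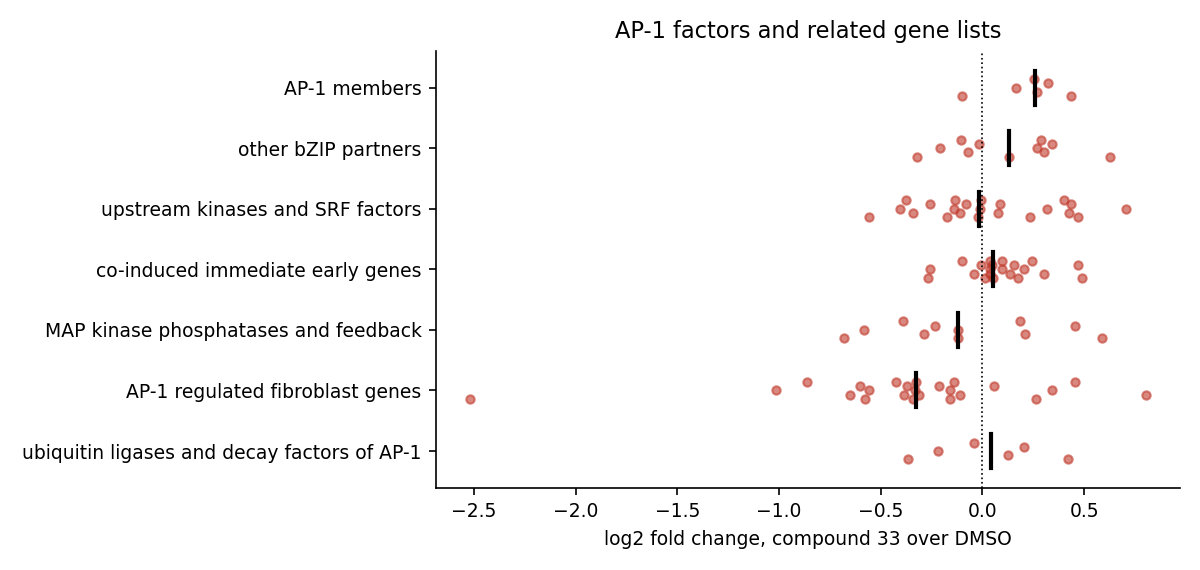
Log2 fold change, compound 33 over DMSO, of every tested gene of the AP-1 family and of 6 related lists, with 1 point per gene and a black bar at each list's median; vertical offsets within a row only separate points. The median is 0.26 for the AP-1 family and -0.33 for the AP-1 regulated fibroblast genes, and the point farthest to the left is Il6 at -2.52.

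The level of Jun across the 6 libraries was most closely followed by Papd5, Zbtb22 and Bri3bp among 8529 other genes with a mean of at least 10 CPM. The root mean square difference between the centred log2 profiles was 0.047, 0.052 and 0.058, where the median gene differed from Jun by 0.36. With 6 libraries and this many genes, such closeness describes these libraries and carries no test. The same was not computed for Fos and Atf3, which did not meet the low-count filter.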

How the data were processed

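The count table that the authors deposited gives unnormalized whole reads for each gene symbol in 6 libraries. The authors' other deposited table is their test of compound 33 against DMSO, with a mean normalized count (a signal over all libraries), log2 fold change with its error, Wald score, p-value and adjusted p-value. HISAT2 2.2.1 and featureCounts 2.0.3 are listed, with mm10, FastQC 0.11.9 and DESeq2, in the submitters' processing notes; not given in the sources used here are the annotation, the strand setting and the handling of multiply matching reads.

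The test used edgeR 4.0.16 in R 4.3.3: filterByExpr (minimum count 10, 10124 genes kept), TMM scaling, and a robust quasi-likelihood F test with treatment as its sole term, two-sided, with Benjamini-Hochberg adjustment over all genes kept. The SE is the log2 fold change over the square root of F. The method was tested on simulated data. limma 3.58.1 (voom) and DESeq2 1.42.0 were alternatives, with other scalings, filters, a replicate block and each library left out. Intervals on counts cover counting error only.

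The members and lists were chosen with earlier results of these data known. Named genes are the 9 members and, per list, any that passed, the 4 largest changes at a mean of at least 10 CPM and the 2 most abundant; others are marked as chosen later. Protein sequences, planned for the description, were not used here.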

Additional observations from a re-analysis of the deposited data

How the results depend on the processing

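No AP-1 member passed under any of the alternatives run, and the log2 fold changes of Fosl1, Fosl2, Jun, Jund and Maff stayed positive in all of them. That of Junb ran from -0.31 to 0.11 with single libraries left out and reversed without compound 33 replicate 1 (0.01) and without DMSO replicate 1 (0.11). The rare members were refitted without a low-count filter and with each library left out, an alternative chosen after seeing the data: Fos ran from -0.28 to 0.59, turning negative without compound 33 replicate 1 (-0.28) and DMSO replicate 2 (-0.062), Fosb from -0.63 to 0.43, turning positive without compound 33 replicate 1 (0.43) and DMSO replicate 3 (0.17), and Atf3 stayed positive from 1.31 to 1.99. The number of all genes that passed was 3, and it was 21 without a low-count filter, 18 in DESeq2, 7 with the replicate block, and 1 to 7 with single libraries left out (1 without compound 33 replicate 1 or DMSO replicate 3, and 7 without DMSO replicate 1). The median of the other leucine zipper partners was 0.28 without a low-count filter and 0.034 to 0.27 with libraries left out. That of the other immediate early genes was 0.12 in limma-voom and 0.059 to 0.12 with libraries left out. With libraries left out, the median was -0.20 to 0.0023 for the phosphatases and -0.33 to -0.23 for the AP-1 regulated genes. For the protein and RNA turnover factors it was -0.10 (without DMSO replicate 1) to 0.19 (without DMSO replicate 2). For the kinases it was -0.087 (without DMSO replicate 2) to 0.027 (without compound 33 replicate 1). The medians of the turnover factors, the kinases and the phosphatases changed sign. For these counts and medians the cause was not tested. Replicate numbers were not taken to pair the libraries, since deviations of same-numbered libraries correlated at -0.03, 0.21 and 0.08 across genes and not every library correlated best with its own number; with the replicate block 0 AP-1 members passed in edgeR, with 0 under an unadjusted 0.05, and of the AP-1 regulated genes Il6 passed. Depth limits Fos, Fosb and Atf3, where 1 read is worth 0.348 to 0.611 CPM.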
